A study of Mus musculus with 28 samples.

Results

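The genes described here encode 8 cathepsins and legumain, the main endopeptidases and exopeptidases of the lysosome. They are Ctsa, Ctsb, Ctsc, Ctsd, Ctsk, Ctsl, Ctss, Ctsz and Lgmn, chosen by name, and make up 9 of the 17097 genes measured and 18 of the 45141 probe sets on the array. RNA abundance was measured on 28 arrays, in cells sorted by CD45, a surface protein of leukocytes, out of tumours grown from the melanoma line B16.F10 or the colon carcinoma line MC38. In all hosts Foxp3, the transcription factor gene of regulatory T cells, drove a Cre recombinase with YFP (genotype Foxp3Cre-YFP, the control), so the controls carry the Cre too. The other hosts also had floxed Nrp1 alleles (Nrp1L/LFoxp3Cre-YFP) and lose neuropilin-1 in cells that express Foxp3, and they are called Nrp1-deleted here. MC38 tumours were taken at days 6, 12 and 18, and B16 tumours at days 12 and 18 and at an earlier day. The sample titles call that day 8 but the source names call it day 6, so it is named the early day here. The 4 groups of B16 day 18 and MC38 day 12 held 3 arrays each and the other 8 groups held 2 each. No label ties a replicate to a separate animal, and p-values cover only the spread among these samples, which may be technical.

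Cathepsins are made as inactive precursors, carried to the lysosome by mannose-6-phosphate receptors, and activated there at acid pH. Ctsb, Ctsc, Ctsk, Ctsl, Ctss and Ctsz encode cysteine proteases, Ctsd encodes an aspartic protease, Ctsa a serine carboxypeptidase, and Lgmn an endopeptidase that cuts after asparagine and helps to process other cathepsins. In macrophages and dendritic cells these enzymes digest engulfed protein, and cathepsin S trims the invariant chain of MHC class II molecules.

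Ptprc, the gene of CD45 itself, was bright on every array (log2 11.5 to 12.9), whereas Foxp3 lay at 2.65 to 3.44, below the median of all values (3.64). The mean of 11 macrophage marker genes was 5.94 to 11.7 and that of 9 T cell marker genes 6.27 to 10.8, so RNA of both kinds of leukocyte was present. Nrp1 averaged lower in Nrp1-deleted hosts in each of the 6 settings of tumour and day, and the difference over the settings was -0.84 ± 0.09 (log2, SE, adjusted p = 1.65e-07 by limma). Ptprc averaged higher in Nrp1-deleted hosts, by 0.25 ± 0.03 over the settings (adjusted p = 5.1e-06 by limma). Its difference was largest at B16 day 18 (0.41 ± 0.07) and smallest at the early B16 day (0.04 ± 0.09). Value distributions came in 3 shapes, which define 3 array sets, B16 day 18 with MC38 day 12, MC38 days 6 and 18, and the early B16 day with B16 day 12. Differences between genotypes were taken within a setting and so within a set, and levels are set side by side across sets as a description only.

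RefSeq promoter windows of assembly GRCm38.p6, each of 300 bases and ending just past a transcript start, were matched for 8 of the 9 genes and gave 10 windows. The hexamer CACGTG, the core of the element bound by the MiT transcription factors that drive lysosomal genes, stood in windows of 4 genes (Ctsa, Ctsd, Ctsl and Lgmn). It stood in 7.15% of all 32851 promoter windows of that length, and as it is its own reverse complement both strands are read at once. The letters TCACGTG, on either strand, stood in windows of 3 of the genes (Ctsa, Ctsd and Lgmn) and in 3.77% of all windows, and every such match holds the hexamer. The letters GAGGAA, on either strand, stood in windows of 3 genes (Ctsc, Ctsk and Ctss) and in 28.3% of all windows, and TGANTCA in none of the 10 windows and in 7.81% of all. The windows of Lgmn and Ctsz are shown because these 2 genes ran closest together over the arrays, and that of Ctsd because it ran apart from them. They read 5′ to 3′ with CACGTG in capitals, and a match is a description of the letters only.
Lgmn, upstream start promoter, chr12:102439679-102439978 (- strand): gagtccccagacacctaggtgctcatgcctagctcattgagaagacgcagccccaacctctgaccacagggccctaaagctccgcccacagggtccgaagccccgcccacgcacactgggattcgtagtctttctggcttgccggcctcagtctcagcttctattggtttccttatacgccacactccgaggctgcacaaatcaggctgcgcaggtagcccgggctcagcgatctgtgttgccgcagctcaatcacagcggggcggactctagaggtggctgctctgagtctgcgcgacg
Lgmn, downstream start promoter, chr12:102439043-102439342 (- strand): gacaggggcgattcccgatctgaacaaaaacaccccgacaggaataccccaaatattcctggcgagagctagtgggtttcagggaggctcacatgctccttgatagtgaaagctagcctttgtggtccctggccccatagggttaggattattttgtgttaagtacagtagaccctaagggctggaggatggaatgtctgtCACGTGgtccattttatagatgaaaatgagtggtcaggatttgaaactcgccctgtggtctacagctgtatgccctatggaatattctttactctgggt
Ctsz promoter, chr2:174438990-174439289 (- strand): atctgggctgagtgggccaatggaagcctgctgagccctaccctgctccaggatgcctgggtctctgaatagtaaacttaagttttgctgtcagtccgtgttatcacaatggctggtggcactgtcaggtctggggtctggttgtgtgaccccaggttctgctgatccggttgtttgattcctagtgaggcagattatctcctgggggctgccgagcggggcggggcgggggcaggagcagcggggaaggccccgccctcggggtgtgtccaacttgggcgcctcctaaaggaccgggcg
Ctsd promoter, chr7:142387778-142388077 (- strand): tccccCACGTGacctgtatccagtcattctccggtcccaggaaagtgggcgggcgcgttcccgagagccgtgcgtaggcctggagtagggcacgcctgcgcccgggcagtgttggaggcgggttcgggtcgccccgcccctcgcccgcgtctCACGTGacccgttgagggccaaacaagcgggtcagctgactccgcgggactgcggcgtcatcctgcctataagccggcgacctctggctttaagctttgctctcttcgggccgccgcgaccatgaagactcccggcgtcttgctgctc
The hexamer stood once in the window of the downstream Lgmn start, at 2 places in the Ctsd window, and not in the window of the upstream Lgmn start or in that of Ctsz.

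The widest genotype differences were in B16 tumours at day 12, where 7 of the 9 genes were lower in Nrp1-deleted hosts and none was higher. Of all genes, 9.17% were called lower there, 7.80% higher and 17.0% in either direction, at an adjusted p under 0.05. Lgmn read 5.80 and 6.55 on the Nrp1-deleted arrays, against 10.49 and 10.32 on the control arrays. Its log2 difference was -4.23 ± 0.37 (SE, n = 2 each, adjusted p = 1.54e-08 by limma, Benjamini-Hochberg over all genes), or 18.8-fold lower. Ctsl, which encodes a broad endopeptidase, had 7.87 and 8.12 on Nrp1-deleted arrays and 10.91 and 11.01 on controls, a difference of -2.96 ± 0.28 (adjusted p = 3.65e-08 by limma). For both genes every Nrp1-deleted array lay far below both controls.

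Ctsz, the gene of the carboxypeptidase cathepsin Z, had 9.59 and 9.93 on Nrp1-deleted arrays and 11.88 and 11.89 on controls. Its difference was -2.12 ± 0.17 (adjusted p = 6.19e-09 by limma). Ctsb, whose product has both endopeptidase and exopeptidase activity, had 10.45 and 10.34 on Nrp1-deleted arrays and 11.82 and 11.69 on controls. The difference was -1.36 ± 0.12. These 2 genes again showed no overlap between genotypes, and the share of all genes without overlap was not counted. Ctsc, which encodes the dipeptidyl peptidase that activates granule serine proteases, had 11.25 and 11.28 on Nrp1-deleted arrays and 12.47 and 12.43 on controls (-1.19 ± 0.13). Ctss had 11.66 and 11.58 on Nrp1-deleted arrays and 12.63 and 12.67 on controls (-1.03 ± 0.10). Ctsa, whose product also shields beta-galactosidase and neuraminidase in a complex, moved least of the 7, with 9.66 and 9.72 on Nrp1-deleted arrays and 10.08 and 10.12 on controls (-0.41 ± 0.12, adjusted p = 0.018 by limma). Leaving out any one of those 4 arrays ended the call for Ctsa and for no other of the 7 genes.

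Ctsd and Ctsk were not called at B16 day 12. Ctsd had 10.80 and 10.84 on Nrp1-deleted arrays, against 10.74 and 10.47 on controls, a difference of 0.22 ± 0.15 with a 95% interval of -0.10 to 0.53. Ctsk, which encodes the collagen-degrading cathepsin of osteoclasts, was dim in all B16 arrays (3.57 to 4.87) and had 3.88 and 3.62 on Nrp1-deleted arrays and 4.38 and 4.495 on controls. The median difference of the 9 genes was -1.19, beside 0.04 for all genes tested.

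Macrophage markers moved with these genes. At B16 day 12 all 11 were lower in Nrp1-deleted hosts (median -3.41), with a list mean of 5.94 to 6.52 on Nrp1-deleted arrays and 9.79 to 9.83 on controls, and none of the 11 averaged below the median of all values in either group. The list includes Csf1r, the receptor gene for the macrophage growth factor CSF1 (-2.89 ± 0.21), Cd68 (-3.28 ± 0.26), Ms4a7 (-4.79 ± 0.38) and C1qc (-3.80 ± 0.34). All 5 dendritic cell markers and 3 of 5 neutrophil markers were lower too, and 2 of 9 T cell markers were higher. The 8 melanocytic markers, genes of the tumour line's own lineage, moved as well, with 7 lower and a list mean of 5.14 to 6.06 on Nrp1-deleted arrays and 7.34 to 7.51 on controls. In such bulk samples, fewer cells of a type and less RNA per cell cannot be told apart, and the part of these cell types in the result was not tested.

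**Figure D1:**
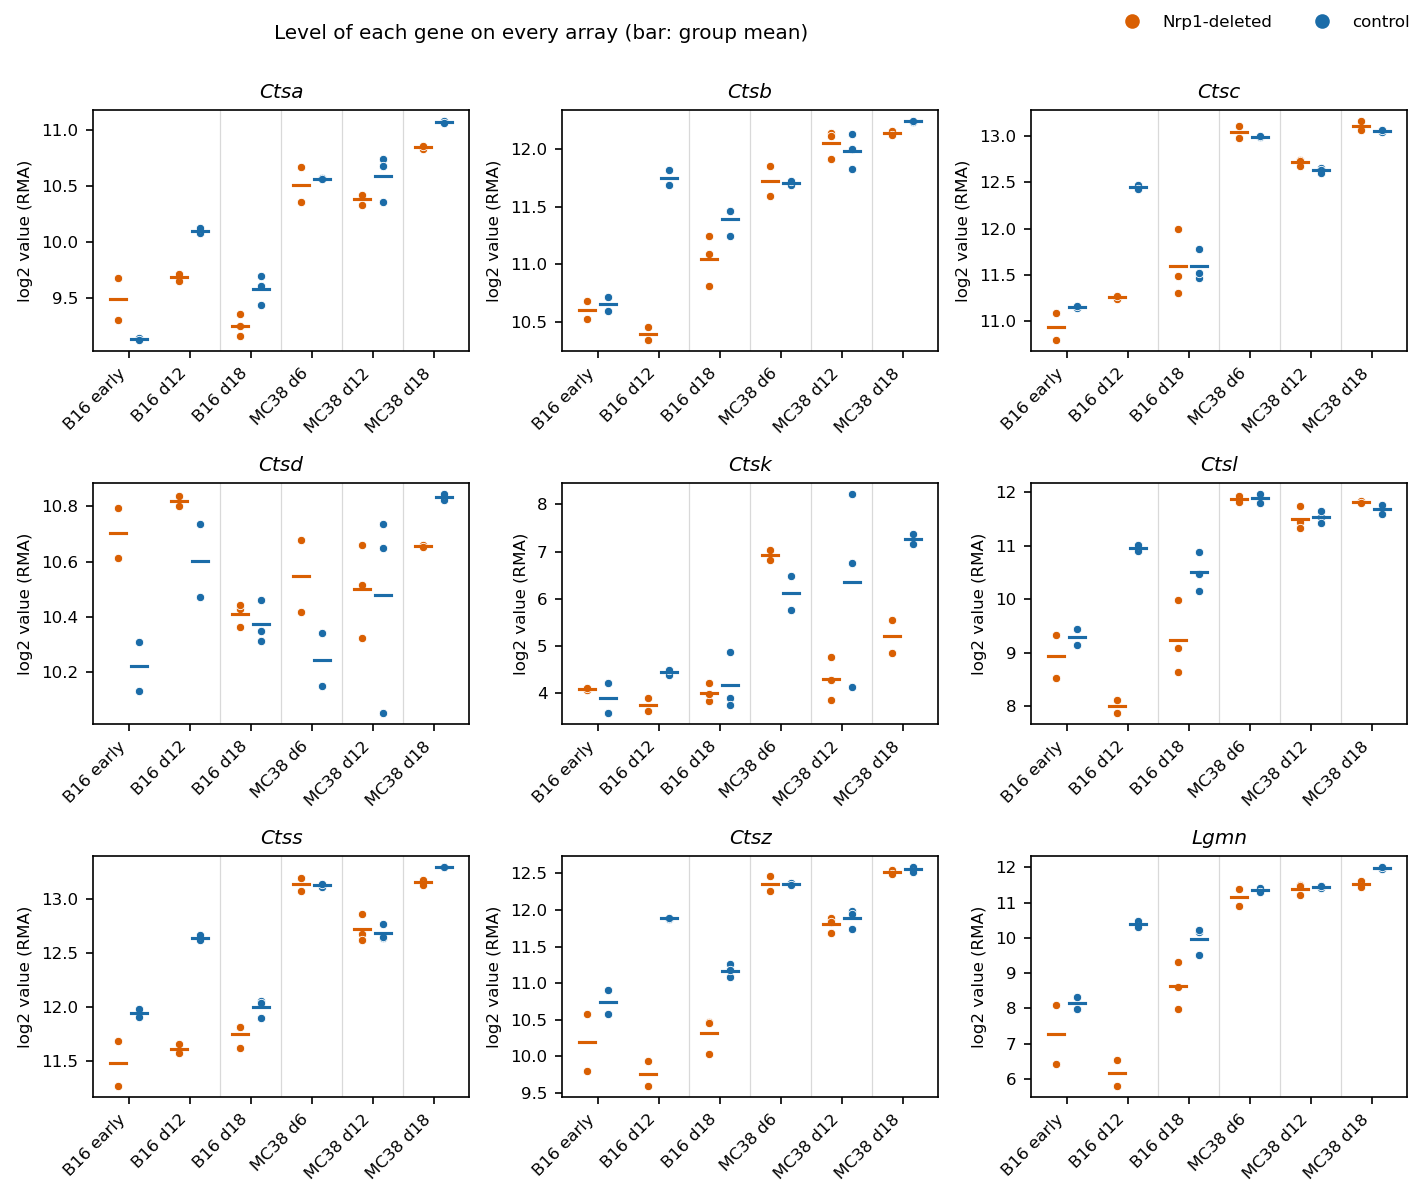
RMA log2 value of each gene on every array (1 point per array, bar at the group mean), by tumour and day on the x axis, with Nrp1-deleted arrays left of controls. Vertical lines part neighbouring settings of different array sets. At B16 day 12 the gap between genotypes is widest for Lgmn (5.80 and 6.55 on Nrp1-deleted arrays, 10.49 and 10.32 on controls), and the MC38 points of most genes lie close together.

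At B16 day 18, with 3 arrays in each group, 6 genes were lower in Nrp1-deleted hosts and none was higher, beside 11.3% of all genes lower, 7.54% higher and 18.8% in either direction. Lgmn had 8.62, 7.996 and 9.32 on Nrp1-deleted arrays and 10.16, 9.52 and 10.21 on controls, a difference of -1.32 ± 0.31 (adjusted p = 0.00313 by limma). Ctsl had 9.08, 8.63 and 9.98 on Nrp1-deleted arrays and 10.46, 10.16 and 10.89 on controls (-1.27 ± 0.23). Ctsz had 10.47, 10.03 and 10.46 on Nrp1-deleted arrays and 11.26, 11.08 and 11.18 on controls (-0.85 ± 0.14, adjusted p = 0.000106 by limma). In each of the 6 genes, picked here by their calls on the same arrays, the highest Nrp1-deleted array stayed below the lowest control. The share of all genes that do so was not counted. Ctsb (-0.34 ± 0.10), Ctsa (-0.32 ± 0.10) and Ctss (-0.24 ± 0.08) fell by less, and all 3 lost the call when control replicate 1, control replicate 3 or Nrp1-deleted replicate 2 of that day was left out, which leaves 3 genes called.

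Ctsc, lower at B16 day 12, was not called at day 18. It had 11.49, 11.30 and 11.99 on Nrp1-deleted arrays and 11.78, 11.47 and 11.52 on controls, a difference of 0.00 ± 0.11 with a 95% interval of -0.23 to 0.23. The Nrp1-deleted arrays spread wider than the controls and enclosed them. Ctsd (0.04 ± 0.12) and Ctsk (-0.16 ± 0.57) overlapped between genotypes as well. On this day the macrophage marker mean was 7.55 to 8.04 on Nrp1-deleted arrays and 8.92 to 9.77 on controls. The melanocytic mean was 5.93 to 7.14 on Nrp1-deleted arrays and 9.88 to 10.42 on controls, the widest genotype gap of that list in the series.

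In early B16 tumours 1 gene, Ctss, was lower in Nrp1-deleted hosts, where 0.292% of all genes were called lower and 0.445% in either direction. Ctss had 11.69 and 11.27 on Nrp1-deleted arrays and 11.92 and 11.98 on controls, a difference of -0.47 ± 0.10 (adjusted p = 0.0352 by limma). It lost the call without early control replicate 1, early control replicate 2, early Nrp1-deleted replicate 2 or MC38 day 18 control replicate 1, with adjusted p of 0.05 to 0.999. Lgmn read 8.11 and 6.43 on Nrp1-deleted arrays, against 7.97 and 8.33 on controls, and Ctsz read 10.58 and 9.80 on Nrp1-deleted arrays, against 10.58 and 10.90 on controls. Early Nrp1-deleted replicate 1 thus sat with the controls for both genes and replicate 2 lay well below. Without replicate 1, 4 genes were called, among them Lgmn (-1.72, adjusted p = 0.00942) and Ctsz (-0.94, adjusted p = 0.00215), by a limma fit that takes the lone array to vary like the other groups. The fourth was Ctsa, which was higher, at 0.55. With all arrays Ctsa averaged 9.49 in early Nrp1-deleted hosts and 9.14 in early controls. That difference was not called (adjusted p = 0.256 by limma). Ctsd (0.48 ± 0.15) was called without MC38 day 12 control replicate 2 (adjusted p = 0.0434). The macrophage marker mean on those arrays ran across 6.19 to 7.62 in Nrp1-deleted hosts and 7.73 to 7.89 in controls.

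**Figure D2:**
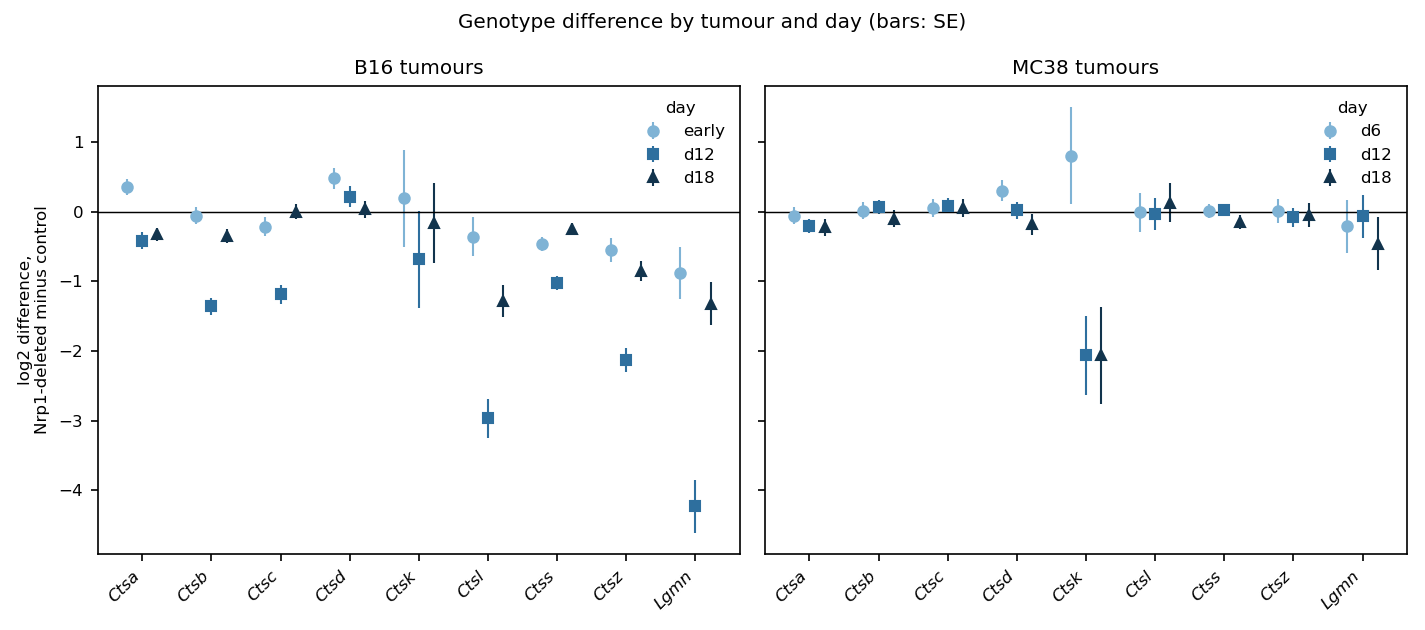
Log2 difference between Nrp1-deleted and control hosts for each gene (points, with SE bars) at each day of B16 tumours (left) and MC38 tumours (right). In B16 tumours the day 12 points of Lgmn (-4.23), Ctsl (-2.96) and Ctsz (-2.12) lie lowest, and in MC38 tumours the points lie near 0 apart from Ctsk (-2.06 at days 12 and 18).

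Averaged over the 3 B16 days, 6 genes were lower (Lgmn, Ctsl, Ctsz, Ctsb, Ctss and Ctsc) and 1 was higher, beside 12.3% of all genes lower, 10.3% higher and 22.6% in either direction. The differences ran between -2.14 ± 0.20 for Lgmn and -0.47 ± 0.07 for Ctsc. The gene that was higher was Ctsd (0.25 ± 0.08, adjusted p = 0.035 by limma). Its arrays gave 10.61 and 10.79 in early Nrp1-deleted hosts, against 10.31 and 10.13 in early controls, and overlapped at day 18. The call for Ctsd was lost in 11 of 38 alternatives, with an adjusted p of 0.0519 without the B16 day 18 arrays and 0.0527 to 0.137 without any one of 8 B16 arrays. Those were control replicates 2 and 3 and Nrp1-deleted replicate 2 of day 18, control replicate 2 and both Nrp1-deleted replicates of day 12, and replicate 2 of each early group. Ctsa (-0.13 ± 0.07) was called over B16 without early Nrp1-deleted replicate 2. Over all 6 settings, 7 genes were lower and none was higher, beside 17.9% of all genes lower, 11.0% higher and 28.8% in either direction. Of the 7, Ctsa (-0.14 ± 0.05, adjusted p = 0.0213 by limma) lost the call without MC38 day 6 Nrp1-deleted replicate 2 or early B16 Nrp1-deleted replicate 1. Ctsk (-0.66 ± 0.27) was called without MC38 day 12 control replicate 2, and Ctsd (0.15 ± 0.06) without any of 5 arrays, namely control replicate 1, control replicate 3 or Nrp1-deleted replicate 1 of MC38 day 12, MC38 day 6 Nrp1-deleted replicate 2 or B16 day 12 control replicate 1. The mean of Lgmn was below that of controls in 6 of 6 settings, of which B16 days 12 and 18 passed the test.

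In MC38 tumours no mean genotype difference was called for 8 of the 9 genes. Lgmn had 11.40 and 10.92 on Nrp1-deleted arrays and 11.42 and 11.31 on controls at day 6. At day 12 it had 11.20, 11.49 and 11.46 on Nrp1-deleted arrays and 11.46, 11.43 and 11.48 on controls. At day 18 it had 11.60 and 11.45 on Nrp1-deleted arrays and 11.95 and 12.01 on controls. The Lgmn groups overlapped at days 6 and 12 but not at day 18, and the mean difference over the 3 days was -0.24 ± 0.20, with a 95% interval of -0.67 to 0.18. The intervals of Ctsb (-0.14 to 0.13), Ctss (-0.15 to 0.08), Ctsz (-0.23 to 0.16), Ctsc (-0.09 to 0.22), Ctsd (-0.12 to 0.22) and Ctsl (-0.29 to 0.35) all enclosed 0. By day, Ctsd on Nrp1-deleted arrays was 0.30 higher at day 6, 0.02 higher at day 12 and 0.18 lower at day 18. At day 18 the groups of Ctsa, Ctsb, Ctsd, Ctss and Ctsl did not overlap either, with Ctsl higher and the others lower on Nrp1-deleted arrays. None of these was called, and the share of all genes without overlap was not counted. Ctsa had an adjusted p of 0.0931 by limma and a difference of -0.16 ± 0.07, and was called without MC38 day 12 control replicate 2 or MC38 day 6 Nrp1-deleted replicate 1.

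Ctsk was the exception, and the single gene of the 9 called over the MC38 days, where 12.3% of all genes were called lower, 6.97% higher and 19.3% in either direction. At day 6 it had 6.82 and 7.04 on Nrp1-deleted arrays and 6.48 and 5.77 on controls. At day 12 it had 4.77, 3.86 and 4.28 on Nrp1-deleted arrays and 6.75, 4.12 and 8.22 on controls. At day 18 it had 5.55 and 4.85 on Nrp1-deleted arrays and 7.37 and 7.16 on controls. Nrp1-deleted arrays were thus above the controls at day 6 and below them at day 18, and day 12 overlapped through control replicate 2. The mean difference was -1.11 ± 0.38 (adjusted p = 0.043 by limma) and was lost in 19 of 37 alternatives, 13 of which left out 1 array (adjusted p of 0.051 to 0.124). The arrays were control replicates 1 and 3 and Nrp1-deleted replicates 2 and 3 of MC38 day 12, control replicate 1 and both Nrp1-deleted replicates of day 6, all 4 of day 18, and both B16 day 12 controls.

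By day, 1 gene was called in MC38 tumours at day 12 and none at day 6 or day 18. Of all genes, 4.87% were called lower, 3.71% higher and 8.59% in either direction at day 12, 1.99% lower and 2.97% in either direction at day 6, and 2.24% lower, 3.12% higher and 5.36% in either direction at day 18. The day 12 gene was Ctsk, at -2.06 ± 0.57 (adjusted p = 0.0255 by limma). Without control replicate 1, control replicate 3, Nrp1-deleted replicate 2 or Nrp1-deleted replicate 3 of that day its call was lost (-1.13 to -2.05), and without control replicate 2 it was -3.18 (adjusted p = 1.39e-05), when Ctsa was called as well. The day 18 difference was as large, -2.06 ± 0.70, with an adjusted p of 0.0895 by limma, and 0.0028 or 0.0202 without MC38 day 12 control replicate 2 or 3. The genotype difference in Ctsk between days 18 and 6 was -2.87 ± 0.99 (adjusted p = 0.421 by limma), on a contrast where 0 of the 9 genes and 0.0819% of all genes were called (0.0643% higher). It was called without MC38 day 12 control replicate 2 (adjusted p = 0.0344).

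Fibroblast marker RNA moved in the same MC38 arrays. The mean of 10 such markers at day 12 was 3.74 to 4.13 on Nrp1-deleted arrays and 5.03 to 5.12 on controls, and 4 were lower over the MC38 days, Dcn (-2.07), Postn (-2.13), Thbs2 (-2.15) and Col3a1 (-2.18). On average 7 of the 10 lay below the median of all values in day 12 Nrp1-deleted hosts and 6 in controls. The list was also lower at day 6, with 4.08 to 4.37 on Nrp1-deleted arrays and 4.95 to 5.32 on controls, where Ctsk was not lower, and at day 18, with 4.38 to 4.40 on Nrp1-deleted arrays and 5.18 to 5.23 on controls, where Ctsk differed by -2.06. Among 7 osteoclast genes, 2 were lower over the MC38 days (Mmp9, -0.74 ± 0.22, and Tnfrsf11a, -0.71 ± 0.16) and 2 higher (Ocstamp, 0.82 ± 0.18, and Nfatc1, 0.40 ± 0.09). The macrophage mean was 10.86 to 11.08 on day 12 Nrp1-deleted arrays and 10.97 to 11.27 on controls, and 0 of its 11 genes were called over the MC38 days. The part of these cell types in the Ctsk values was not tested.

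The genotype effect itself differed between tumour lines for 6 genes, all lower in B16, beside 7.22% of all genes lower, 6.75% higher and 14.0% in either direction. Subtracting the effect in MC38 from that in B16 left -1.90 ± 0.29 for Lgmn, -1.56 ± 0.22 for Ctsl and -1.14 ± 0.13 for Ctsz. It was -0.58 ± 0.09 for Ctsb, -0.54 ± 0.08 for Ctss and -0.53 ± 0.10 for Ctsc, and the adjusted p of the 6 ran between 6.67e-06 and 0.000971 by limma. Ctsa (0.03 ± 0.09), Ctsd (0.20 ± 0.12) and Ctsk (0.89 ± 0.54) did not pass, and the last 2 were called without MC38 day 12 control replicate 2.

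Over time, B16 control tumours gained these transcripts between the early day and day 12, which share an array set. In controls 7 genes were higher at day 12, beside 9.14% of all genes higher, 6.92% lower and 16.1% in either direction. Lgmn was 2.26 ± 0.37 higher, Ctsl 1.67 ± 0.28, Ctsc 1.29 ± 0.13, Ctsz 1.15 ± 0.17, Ctsb 1.10 ± 0.12, Ctsa 0.96 ± 0.12 and Ctss 0.70 ± 0.10. For each of the 7, picked here by their calls, both day 12 controls lay above both early controls. The share of all genes that do so was not counted. Ctsd, at 0.38 ± 0.15 (adjusted p = 0.0994 by limma), was called only without MC38 day 12 control replicate 2 among the arrays left out. These day 12 controls also serve the genotype comparison of that day, so the 2 comparisons are not independent. The macrophage marker mean was 9.79 to 9.83 in day 12 controls and 7.73 to 7.89 in early controls, with 11 of 11 genes higher, while 0 of 8 melanocytic genes changed.

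In Nrp1-deleted hosts the same interval gave 2 lower genes and 0 higher, beside 7.09% of all genes lower, 9.14% higher and 16.2% in either direction. Ctsl was lower (-0.94 ± 0.28, adjusted p = 0.0234 by limma), with 7.87 and 8.12 at day 12 and 9.33 and 8.53 at the early day. It lost the call without either day 12 Nrp1-deleted array or early Nrp1-deleted replicate 1. Lgmn had 5.80 and 6.55 at day 12 and 8.11 and 6.43 at the early day, which overlap. Its call (-1.10 ± 0.37, adjusted p = 0.0476 by limma) was lost in 26 of 36 alternatives, 21 of them with 1 of the 28 arrays left out, and without early Nrp1-deleted replicate 1 the difference was -0.26 (adjusted p = 0.784). The call held without control replicate 2 or Nrp1-deleted replicates 2 or 3 of B16 day 18, either MC38 day 6 Nrp1-deleted array, or Nrp1-deleted replicate 2 of the early day or day 12. Leaving out 1 array put the count of genes called at 0 to 3, with Ctsc added without B16 day 18 Nrp1-deleted replicate 3, Ctss without early Nrp1-deleted replicate 1 and Ctsz without early Nrp1-deleted replicate 2. Ctsc (0.32 ± 0.13), Ctsa (0.19 ± 0.12) and Ctss (0.14 ± 0.10) did not pass.

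The difference between these time courses passed the test for the 7 genes that rose in controls, all lower in Nrp1-deleted hosts, beside 4.41% of all genes lower, 1.88% higher and 6.29% in either direction. It was -3.35 ± 0.53 for Lgmn, -2.61 ± 0.40 for Ctsl, -1.58 ± 0.24 for Ctsz and -1.30 ± 0.17 for Ctsb. For Ctsc it was -0.98 ± 0.19, for Ctsa -0.77 ± 0.17 and for Ctss -0.56 ± 0.14. The Ctss call (adjusted p = 0.0148 by limma) was lost without control replicate 2 or Nrp1-deleted replicate 2 of day 12, or replicate 1 of either early group. Ctsd (-0.27 ± 0.22) and Ctsk (-0.87 ± 0.99) did not pass. Over the same contrast all 11 macrophage markers and 7 of 8 melanocytic markers were lower too.

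**Figure D3:**
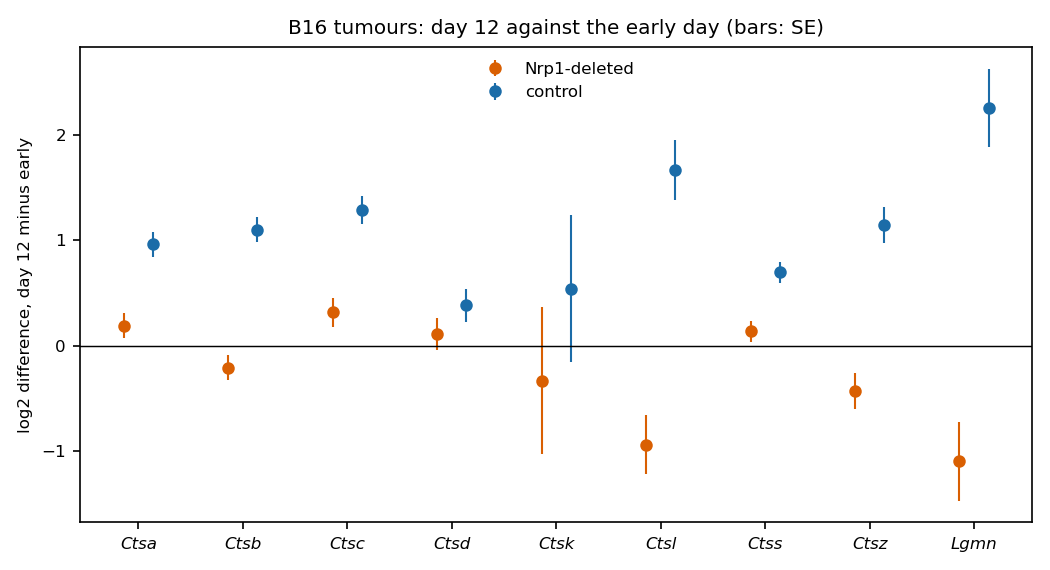
Log2 difference between day 12 and the early day in B16 tumours for each gene (points, with SE bars), Nrp1-deleted hosts left of controls. Control points lie between 0.38 and 2.26, and Nrp1-deleted points lie between -1.10 and 0.32.

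MC38 controls were compared between days 6 and 18, another interval and array set than in B16, and the 2 time courses were not tested against each other. At day 18, against day 6, 3 genes were higher in controls, Ctsd (0.59 ± 0.15), Ctsb (0.53 ± 0.12) and Ctsa (0.50 ± 0.12), beside 4.40% of all genes higher, 4.54% lower and 8.94% in either direction. Ctsd had 10.82 and 10.85 in day 18 controls and 10.34 and 10.15 in day 6 controls, which did not overlap. Leaving out any 1 of the 4 arrays took at least 1 of the 3 calls and left 1 to 3 genes called over all 28 omissions. Ctsa lost its call without any of the 4, Ctsd without day 6 control replicate 2 or either day 18 control, and Ctsb without day 6 control replicate 1. In Nrp1-deleted hosts 0 genes passed, where 1.94% of all genes did (0.749% lower, 1.19% higher), and Ctsb came nearest at 0.42 ± 0.12 (adjusted p = 0.067 by limma). Ctsb was called without MC38 day 6 Nrp1-deleted replicate 1 or B16 day 18 Nrp1-deleted replicate 2 or 3, as was Ctsa without the first of these and Ctsk without MC38 day 12 control replicate 2.

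The 5 genes with several probe sets allowed a check within the gene, with p-values adjusted over all probe sets. At B16 day 12 the 3 dimmer sets of Ctsb differed by -1.51 to -1.77 and its brightest by -1.36. The 2 dimmer sets of Ctsc gave -1.64 and -1.96 where the brightest, near the top of the array's range (99.55th percentile), gave -1.19. The Ctsz sets, which include the types that can bind related transcripts, differed by -2.12 to -2.23. The sets of Ctsl disagreed in size, at -2.96 ± 0.27 and -1.002 ± 0.31 at day 12, and in the other order at day 18, with -1.27 ± 0.22 on the brightest and -2.02 ± 0.26 on the dimmer set. The second set of Ctsa averaged 3.28, below the median of all values, and was not called (-0.38 ± 0.27). At day 18 the dimmer sets of Ctsc gave -0.39 ± 0.23 and -0.33 ± 0.27, also not called.

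**Figure D4:**
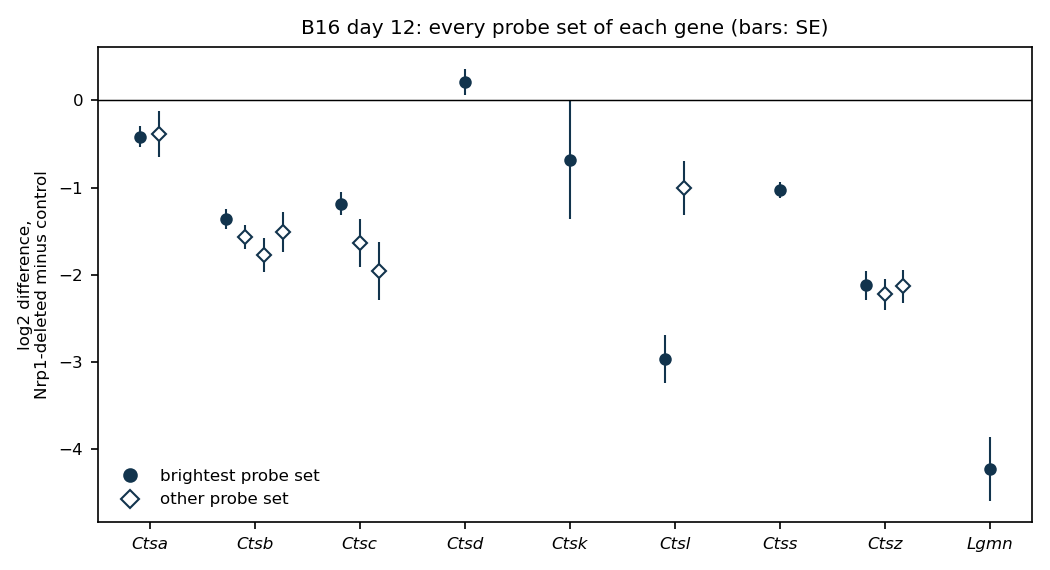
Log2 difference between Nrp1-deleted and control hosts at B16 day 12 for all 18 probe sets (points, with SE bars), filled for the brightest set of each gene and open for the others. All sets of Ctsb, Ctsc and Ctsz lie below 0, and the sets of Ctsl lie at -2.96 and -1.002.

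The levels of 4 genes did not overlap between tumour lines, with all 14 MC38 arrays above all 14 B16 arrays, as was the case for 2.80% of all genes. Most groups of the 2 lines lie in different array sets, so this is a description with no test. Lgmn ran across 10.92 to 12.01 in MC38 and 5.80 to 10.49 in B16, Ctsl across 11.33 to 11.97 in MC38 and 7.87 to 11.01 in B16, and Ctsc across 12.60 to 13.16 in MC38 and 10.80 to 12.47 in B16. Ctsa ran across 10.33 to 11.08 in MC38 and 9.13 to 10.12 in B16. Ctsd overlapped almost throughout, with 10.05 to 10.85 in MC38 and 10.13 to 10.84 in B16. Within the set that holds both lines, MC38 day 12 controls exceeded B16 day 18 controls by 1.49 for Lgmn, 2.20 for Ctsk and 0.11 for Ctsd, but the days differ there. Group means of Lgmn spanned 4.23 log2 units within B16 and 0.82 within MC38, those of Ctsd 0.60 within B16 and 0.59 within MC38, and those of Ctsk 0.68 within B16 and 2.96 within MC38.

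The order of groups within a set was alike for several genes. Among the early and day 12 B16 groups, Lgmn, Ctsz, Ctsl and Ctsb were highest in day 12 controls, then early controls, then early Nrp1-deleted hosts, and lowest in day 12 Nrp1-deleted hosts. The arrays of the 2 early groups overlapped for all 4 genes, and those of the 2 Nrp1-deleted groups overlapped for Lgmn and Ctsz. Ctsd had another order, with day 12 Nrp1-deleted hosts highest (10.82) and early controls lowest (10.22). Among MC38 days 6 and 18, Ctsk was highest in day 18 controls (7.26) and lowest in day 18 Nrp1-deleted hosts (5.20), with no overlap between neighbouring groups.

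Over the 28 arrays, after subtracting each array set's mean, Ctsz and Lgmn ran closest together (Pearson r = 0.986). The correlations among Ctsb, Ctsc, Ctsl, Ctss, Ctsz and Lgmn were 0.846 to 0.986. Ctsd had a median of 0.094 with the other 8 genes and Ctsk 0.354. These values describe arrays that share tumour line and genotype, and 1 set holds both lines. Against the mean of the 11 macrophage markers r was 0.986 for Ctsz, 0.982 for Lgmn, 0.958 for Ctsl and Ctss, 0.929 for Ctsb, 0.868 for Ctsc, 0.770 for Ctsa, 0.410 for Ctsk and 0.022 for Ctsd. Ctsa (0.901), Ctsk (0.541) and Ctsd (0.30) ran closer to the mean of the 7 osteoclast genes, and the other genes did not. Ctsk had 0.585 with the 10 fibroblast markers. Against the 9 T cell markers r was -0.757 to -0.632 for all but Ctsd (-0.148).

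**Figure D5:**
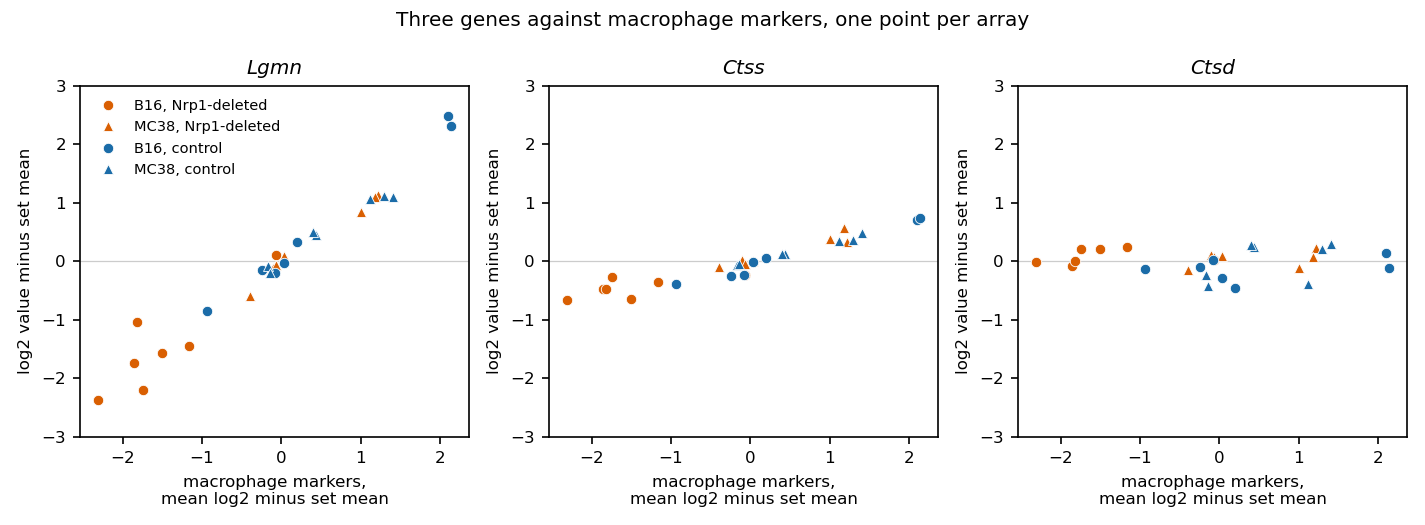
Value of Lgmn, Ctss and Ctsd (y axis, log2 minus the mean of the array's set) against the mean of 11 macrophage markers on the same scale (x axis), 1 point per array. Lgmn spans the most and Ctss follows with a lesser slope, and Ctsd stays level across the whole range (r = 0.022).

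Of 8548 genes brighter than the median gene, the 3 most alike to each were listed by the same correlation. Lgmn was nearest to Ctsz, Sh3pxd2b (0.983) and Cd68 (0.982), the gene of a macrophage lysosomal membrane protein, and Ctsz to Lgmn, Sh3pxd2b and Grn, the gene of progranulin (0.981). Ctss was nearest to Ctsh (0.977), another cysteine cathepsin, and Tns3 and Pid1. Ctsl was nearest to Cd14 (0.975), a lipopolysaccharide co-receptor gene, and Cndp2 and Gpx1. Ctsb was nearest to Myof, Slc11a1 and Cd93 (0.966 to 0.968), Ctsc to Sqor, Tnfrsf21 and Pla2g4a (0.971 to 0.977), and Ctsa to Rnf13, Tpp1, a lysosomal tripeptidase gene, and Eid1 (0.946 to 0.952). Ctsk was nearest to Mmp9, a gelatinase gene of osteoclasts and neutrophils (0.812), Phyhd1 and Cacna1f. The best match of Ctsd was weaker than that of any other of the 9, Retreg2 at 0.716, followed by C330007P06Rik and Ahcyl1.

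Among 6 other cathepsin genes, 1 was lower and 3 were higher over the B16 days, beside 12.3% of all genes lower and 10.3% higher. Ctsh, an aminopeptidase gene, was lower (-1.41 ± 0.13, adjusted p = 1.59e-08 by limma), whereas Ctsw, a gene of cytotoxic lymphocytes, was 0.53 ± 0.17 higher (adjusted p = 0.0217). Ctso (0.54 ± 0.11) and Ctsg (0.68 ± 0.25) were higher too, both averaging below the median of all values over the arrays, and without the B16 day 18 arrays 1 gene was higher. In MC38, Ctsw was higher (0.78 ± 0.17, adjusted p = 0.00158 by limma) and the other 5 did not pass. T cell markers moved beside it, with 6 of 9 higher over the B16 days and 8 of 9 over the MC38 days. Of 9 cathepsin inhibitor genes, 3 were lower in B16, Cst3 (-1.41 ± 0.10), Cstb (-0.57 ± 0.07) and Cst6 (-0.86 ± 0.16), and 2 higher, Cst7 (0.58 ± 0.19) and Stfa3 (0.70 ± 0.11), the last of which averaged 3.16 over the arrays, below the median of all values. Without the B16 day 18 arrays 2 inhibitor genes were lower and 1 higher. In MC38, Cst6 was lower (-0.97 ± 0.16), and Cst7 (0.70 ± 0.19) and Stfa2l1 (0.93 ± 0.29) were higher, beside 12.3% of all genes lower and 6.97% higher. Cst7 encodes cystatin F, an inhibitor of cathepsin C made by cytotoxic and myeloid cells.

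Other lysosomal genes fell in B16 with most of the cathepsins. Of 28 genes of lysosomal hydrolases and their activators, 20 were lower and 0 higher over the B16 days (median -0.46, beside 0.01 for all genes, of which 12.3% were lower and 10.3% higher), led by Hexa (-1.01 ± 0.07), Gm2a (-0.83 ± 0.07), Psap (-0.96 ± 0.08) and Grn (-1.01 ± 0.09). Without the B16 day 18 arrays 14 were lower and 1 higher. Of 15 lysosomal membrane protein genes 8 were lower and 2 higher (7 and 0 without the B16 day 18 arrays), with Lamp1 at -0.79 ± 0.06 and Slc11a1 at -1.51 ± 0.15. Of 14 subunits of the proton pump that acidifies the lysosome 9 were lower and 0 higher, among them Atp6ap2 (-0.41 ± 0.05) and Atp6v0b (-0.63 ± 0.07). In MC38, 2 of the 28 hydrolase genes were lower and 0 higher, beside 12.3% of all genes lower and 6.97% higher.

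Of all genes, 12.3% were lower, 10.3% higher and 22.6% called in either direction over the B16 days, the shares beside each such count here. For list counts without the B16 day 18 arrays, here and above, the shares of all genes are not given. Of the 4 MiT factor genes, which encode regulators of lysosomal transcription, 3 were lower in B16 over its days, Mitf (-1.49 ± 0.13), Tfec (-1.43 ± 0.19) and Tfe3 (-0.46 ± 0.08), while Tfeb was at 0.00 ± 0.13. Mitf is also the master factor of melanocytes, and its RNA moved on arrays where the melanocytic markers moved too. Of 7 genes of lysosomal enzyme sorting, Sort1 (-1.24 ± 0.17) and M6pr (-0.22 ± 0.05) were lower and Gnptab, which encodes a subunit of the enzyme that makes the mannose-6-phosphate tag, was higher (0.61 ± 0.08). All 11 macrophage markers were lower over the B16 days too (median -1.87), and their part in the values of these lists was not tested. All 11 genes of MHC class II and its loading were lower in B16, where Cd74, the invariant chain that cathepsin S cuts, was at -1.49 ± 0.12. Of 9 granule protease genes, whose products cathepsin C activates, 5 were higher and 2 lower in B16, and 1 was higher and 2 lower without the B16 day 18 arrays. Averaged over the 3 days, Gzma (0.62 ± 0.18) and the mast cell chymase gene Cma1 (1.19 ± 0.34) were higher, and Prtn3 (-0.57 ± 0.17) and Gzmc (-1.12 ± 0.36) lower. Of 6 mast cell and basophil markers, 5 were higher over those days, and 2 without the B16 day 18 arrays. The 8 placental cathepsin genes averaged below the median of all values. Of these 1, Cts8, was called higher (0.35 ± 0.09), beside 10.3% of all genes, and none was called without the B16 day 18 arrays.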

How the data were processed

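RNA of CD45-sorted tumour leukocytes was amplified in repeated cycles and labelled with biotin, per the labels' protocols, which can distort dim transcripts. The authors deposited log2 values. The submitters' processing notes name Partek 6.6 and RMA, and the genome build and other settings are not given in the sources used here. Scanner files were not used here. Of 45141 probe sets a platform table named 28898 with 1 gene and 551 with several, and the other 15692 are unnamed here. Each of 17097 genes was represented by its brightest probe set (mean over 28 arrays).

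A limma model (limma 3.58.1, R 4.3.3) with 12 group means was fitted to all 28 arrays and moderated with a trend on intensity. No gene was filtered out, p-values were adjusted by Benjamini-Hochberg over all genes, and genes were called at 0.05. SE values are those of the fit, and tests are 2-sided. The number of arrays limits the precision. Quantiles of arrays differed by up to 0.0914 (root mean square, log2) within each of 3 array sets and by 0.118 to 0.367 between sets. No pair of arrays was identical (highest correlation 0.995). The 9 genes and the gene lists were chosen with earlier results of these data known. Named genes are the 9 with all their probe sets, the 3 most alike to each, up to 4 called members of each list by smallest adjusted p (short lists in full), and Nrp1, Ptprc and Foxp3. The fit was tested on simulated data. Replicate numbers were not shown to pair the samples (correlations of same-numbered deviations -0.276 to 0.196). The values were 0.095 to 0.196 at B16 day 18 and -0.276 to -0.12 at MC38 day 12. Where groups held 2 arrays the check gives 1 value per setting, so it cannot exclude pairing. Alternatives are given in the closing section.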

Additional observations from a re-analysis of the deposited data

Results flagged for a closer look

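The genotype effect differed between tumour lines by a direct test for 6 genes, lower in B16 than in MC38 in each case. The values (log2, B16 minus MC38) were -1.90 for Lgmn, -1.56 for Ctsl, -1.14 for Ctsz, -0.58 for Ctsb, -0.54 for Ctss and -0.53 for Ctsc. The genotype effect differed between days in B16 tumours for 7 genes, lower at day 12 than at the early day. The values (log2, day 12 minus early) were -3.35 for Lgmn, -2.61 for Ctsl, -1.58 for Ctsz, -1.30 for Ctsb, -0.98 for Ctsc, -0.77 for Ctsa and -0.56 for Ctss. No group held 4 or more arrays, so single outlying arrays were not looked for.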

How the results depend on the processing

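Of 144 results for single genes, set against 5301 values under alternatives (probe sets averaged, dim genes left out, loess or 75th percentile scaling, no trend or a robust one, weighted arrays, only the groups compared, a replicate block, each array left out), 5138 stayed on the same side of the threshold, 118 lost the call and 45 gained one. Of results called in the limma fit above or in the alternative, 0 turned in direction. A result called in neither counted as kept whatever its direction. Counts of genes called stayed within 1.5 times for the means over 6 settings and over B16, B16 day 12, MC38 day 6, the difference between tumours, B16 control time and the B16 difference of time courses. Other counts moved as follows. The MC38 mean (1) gave 0 with probe sets averaged, loess, 75th percentile centring, no trend or a robust trend. Early B16 (1) gave 0 with probe sets averaged, no trend, the replicate block or only the groups compared. With only the groups compared, B16 day 18 (6) gave 3, MC38 day 12 (1) gave 0, MC38 day 18 (0) gave 3, MC38 day 18 against day 6 gave 7 in controls (3) and 1 in Nrp1-deleted hosts (0), B16 day 12 against early in Nrp1-deleted hosts (2) gave 1, and the MC38 difference of time courses (0) gave 1. MC38 day 12 gave 0 with a robust trend, MC38 day 18 gave 1 with array weights, MC38 controls over time gave 1 with probe sets averaged, and B16 Nrp1-deleted hosts over time gave 0 with probe sets averaged or a robust trend and 1 with no trend. Leaving out each array gave 0 to 2 for the MC38 mean, 0 to 4 for early B16, 3 to 6 for B16 day 18, 0 to 2 for MC38 day 12, 0 to 1 for MC38 day 18 and for the MC38 difference of time courses, 1 to 3 for MC38 controls over time, 0 to 2 for MC38 Nrp1-deleted hosts over time and 0 to 3 for B16 Nrp1-deleted hosts over time. With the replicate block, where numbers were not shown to pair samples, the count was 8 for the mean over 6 settings, 6 for the B16 mean, 1 for the MC38 mean and 7 for B16 day 12. Leaving out B16 day 18, chosen after seeing the data, left those counts within 1.5 times. The cause of these moves was not tested. A fit on only the groups compared also holds fewer arrays, and its counts moved both up and down. Groups of 2 and 3 arrays, 3 array sets and dim values for Ctsk limit what these arrays can show.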
